A study of Arabidopsis thaliana with 8 samples.

Results

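A set of 4 nuclear genes for the building and composition of thylakoid complexes were compared between the Arabidopsis thaliana petc mutant and wild type (WT). They are PSB27 (AT1G03600), LPA19 (AT1G05385), CCB3 (AT5G36120) and NdhS (AT4G23890). They were chosen by locus, and each had to have a probe that the array's annotation pairs with that gene and no other. Each of the 4 had 1 such probe, out of 692 single-gene probes, which name 691 genes, and 3439 probes in all. Both groups were of the ecotype Landsberg. One was WT, and the other was the petc mutant, in which the cytochrome b6f complex has no Rieske protein. Each had 4 arrays of total RNA, numbered 1 to 4. The labels give no treatment, time or age, and do not say which plants, lines or alleles the RNA came from. No source used here gives the tissue or how the plants were grown, so no check of tissue markers was made. PETC, the gene of the Rieske protein, is not analysed here, so the labels were not checked through it.

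The thylakoid membrane of the chloroplast carries the photosystems, the cytochrome b6f complex that links them, and the NADH dehydrogenase-like (NDH) complex, which returns electrons from ferredoxin to plastoquinone in cyclic electron transport. These complexes mix plastid-encoded and nuclear-encoded subunits, and nuclear-encoded helper proteins put them together. PSB27 and LPA19 are related lumen proteins that act on photosystem II. PSB27 takes part in its assembly and repair, and LPA19 in the processing of the D1 precursor. CCB3 belongs to the pathway that attaches a heme to cytochrome b6. NdhS is the subunit of the NDH complex that forms its ferredoxin-binding site.

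Of the 4 genes, NdhS was higher in petc, while PSB27, LPA19 and CCB3 did not pass the test. The NdhS probe rose 1.33-fold (log2 fold change 0.41 ± 0.079, SE, n = 4 per group), and no NdhS value of petc overlapped a WT value. Its call was lost where replicates 1 and 2, and 3 and 4, of a group were taken as correlated readings or averaged (limma adjusted p of 0.0686 to 0.303). LPA19 was also higher in all 4 petc samples than in any WT sample, with a smaller difference against its spread. PSB27 values overlapped between the groups, and were lower in replicates 3 and 4 of both groups, lowest in petc. For CCB3 the groups overlapped and their means were close, 0.277 in WT and 0.300 in petc, while WT values ran from 0.215 to 0.325. The test was limma on quantile-normalised log2 values across all 2947 probes measured in enough samples, with Benjamini-Hochberg adjustment and a threshold of 0.05. Over all those probes 27.9% passed, 12.7% higher and 15.3% lower in petc, so 1 of 4 genes passing is near the background. The groups did not overlap for 2 of the 4 genes, both higher in petc. This held for 32.3% of all tested probes, 14.6% higher and 17.6% lower in petc. Nothing in the labels says whether replicates came from separate plants, so p-values measure the spread between these arrays, which may be technical. In whole-sample RNA, fewer cells of a type and less RNA per cell cannot be told apart.

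**Figure D1:**
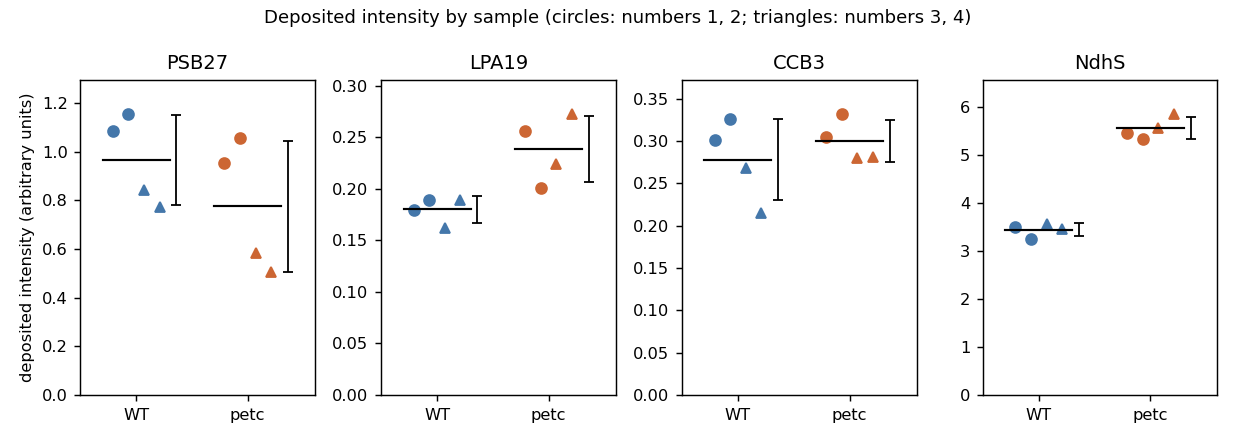
Deposited intensity in arbitrary units (vertical axis, from 0, a separate scale per gene) of PSB27, LPA19, CCB3 and NdhS in 4 WT and 4 petc samples. Circles are replicates 1 and 2, triangles replicates 3 and 4, horizontal lines the group means and bars 1 SD. NdhS and LPA19 show separate groups, while PSB27 lies lower in replicates 3 and 4 of both groups.

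The arrays shared a structure that bears on these genes. Within each group, replicates 1 and 2 resembled each other, as did replicates 3 and 4, with Spearman's rho across probes of 0.982 to 0.990. Across the pairs of a group rho was 0.933 to 0.948, and petc against WT within a pair gave 0.929 to 0.948. The labels do not say what a number marks. Values by pair are therefore given beside the pooled ones, and the fit with the replicate number as a block is given where it changes a call.

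Of the photosystem II factors, PSB27 had deposited intensities of 1.08, 1.16, 0.842 and 0.775 in WT replicates 1 to 4. In petc replicates 1 to 4 it had 0.953, 1.06, 0.582 and 0.507. The values of petc replicates 1 and 2 fell inside the WT range, and those of petc replicates 3 and 4 lay below every WT value. Mean intensity was 0.965 ± 0.185 in WT and 0.775 ± 0.271 in petc (SD, n = 4). The log2 fold change was -0.37 ± 0.29 (SE), with a 95% interval of -1.03 to 0.28 and limma adjusted p = 0.395. That interval spans 0, so the fit without a block gives PSB27 no direction. The change was smaller in size without petc replicate 3 (-0.25) or 4 (-0.18), and also without WT replicate 1 (-0.30) or 2 (-0.27). Leaving out any other array made it larger in size, up to -0.55 without petc replicate 2.

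PSB27 was lower in petc in 4 of 4 same-numbered comparisons, by -0.17, -0.13, -0.56 and -0.62 on the log2 scale for numbers 1 to 4. Arrays within a number pair were much alike, so these 4 comparisons are not independent. The share of all tested probes with the same sign in 4 of 4 was not computed. Numbers 1 and 2 had a mean change of -0.15, numbers 3 and 4 one of -0.59, and the difference between these was not tested. PSB27 also differed between the pairs within a genotype. Replicates 3 and 4 were below replicates 1 and 2 by -0.53 in WT and -0.96 in petc (log2), a difference larger in size than in 72.3% and 92.1% of tested probes. The residual SD of PSB27 was 0.46, and 81.1% of tested probes had a smaller one. With the replicate number as a block the change passed (log2 fold change -0.37 ± 0.11, limma adjusted p = 0.0413). In that fit 46.6% of all tested probes passed, 22.2% higher and 24.4% lower. The call was not made with the means of each pair and the pair as a block (limma adjusted p = 0.136), and the alternatives together gave adjusted p of 0.0292 to 0.715.

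LPA19, the PSB27 relative, had intensities of 0.180, 0.189, 0.162 and 0.189 in WT replicates 1 to 4. In petc it had 0.256, 0.201, 0.224 and 0.273. These are low intensities, as LPA19 belongs to the dimmest 25% of probes. All 4 petc values exceeded all 4 WT values, the nearest being petc replicate 2 and WT replicate 2. Mean intensity was 0.180 ± 0.0130 in WT and 0.238 ± 0.0321 in petc (SD, n = 4). The log2 fold change was 0.31 ± 0.11 (SE), with a 95% interval of 0.054 to 0.57. It missed the threshold after adjustment over all probes (limma adjusted p = 0.0745).

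LPA19 was higher in petc by 0.51, 0.085, 0.30 and 0.37 on the log2 scale between same-numbered samples, for numbers 1 to 4. That all 4 go the same way follows from groups that do not overlap and adds nothing to it. The pair means, 0.30 (numbers 1 and 2) and 0.33 (numbers 3 and 4), were close, but the first averaged over unequal changes in numbers 1 and 2. Its levels in a genotype barely moved between the pairs, by -0.0034 in WT and 0.035 in petc. The call turned on the setting. It passed with the replicate number as a block (limma adjusted p = 0.0345), with the intensities as deposited (0.0396, change 0.40) and with an offset of 0.1 added before log2 (0.0451, change 0.23). It did not pass after median centring (0.0516) or with the means of each pair and the pair as a block (0.122), and over all alternatives the adjusted p ran from 0.0345 to 0.473.

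The log2 ratio of PSB27 to LPA19 within an array was used to ask whether the related genes changed unequally. The normalised log2 ratio was 2.60, 2.60, 2.25 and 1.90 in WT replicates 1 to 4, and 1.92, 2.38, 1.39 and 0.92 in petc replicates 1 to 4. The ranges overlapped through petc replicates 1 and 2. The mean ratio changed from 2.34 ± 0.33 in WT to 1.65 ± 0.63 in petc (SD, n = 4), by -0.69. An exact two-sided permutation test gave p = 0.143, where 0.0286 is the smallest possible. It takes all arrays as exchangeable, though the ratio was lower in replicates 3 and 4 of both groups. By the same test p was 0.0857 as deposited and after median centring (change -0.76), and 0.143 with the offset (-0.55). Between same-numbered samples the ratio was lower in petc in 4 of 4 comparisons, by -0.68, -0.22, -0.87 and -0.98 for numbers 1 to 4. Within a number pair these differences are not independent. An exact two-sided sign-flip permutation of these differences, added after seeing the data, gave p = 0.125, the smallest that 4 pairs allow, so it could not pass. Whether the related genes changed unequally is not settled by these arrays.

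**Figure D2:**
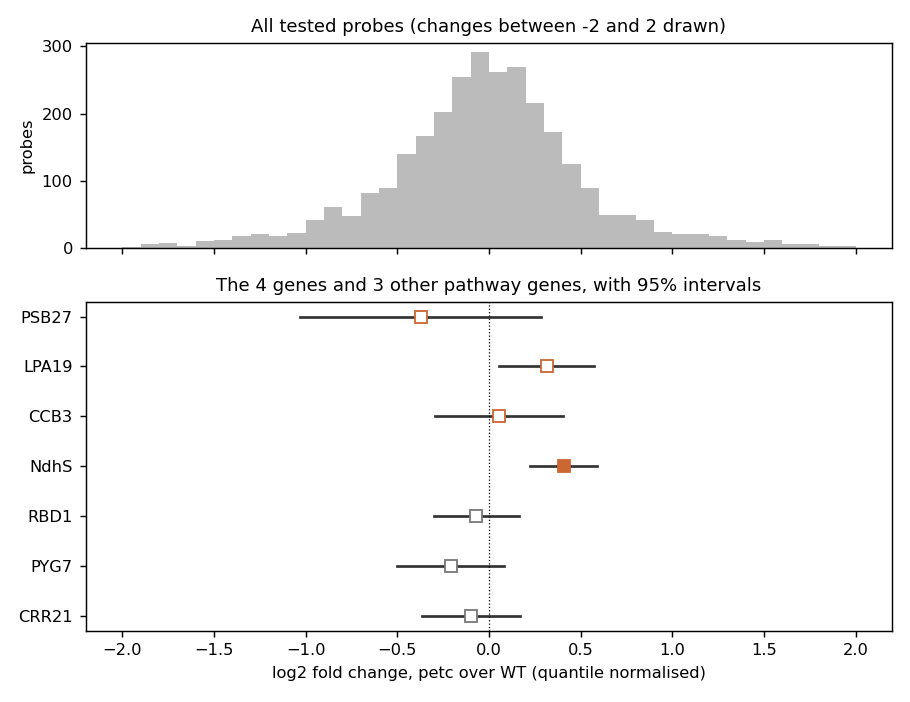
Top: number of probes by log2 fold change of petc over WT in bins of 0.1, for the 2919 of 2947 tested probes between -2 and 2. Bottom: log2 fold change (squares) with its 95% interval for the 4 genes (orange) and 3 further pathway genes (grey), filled where limma adjusted p was at most 0.05. NdhS at 0.41 is the filled square, and it lies within the bulk of the probes above it.

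CCB3, the cytochrome b6f factor, acts on the complex whose Rieske subunit is missing in petc. Its intensities in WT replicates 1 to 4 were 0.301, 0.325, 0.268 and 0.215. In petc they were 0.305, 0.332, 0.280 and 0.281. The groups overlapped, and the lowest value was that of WT replicate 4. Mean intensity was 0.277 ± 0.0478 in WT and 0.300 ± 0.0247 in petc (SD, n = 4). The log2 fold change was 0.054 ± 0.15 (SE, limma adjusted p = 0.843). The 95% interval of the fold change was 0.814 to 1.32, taking the 4 arrays of a group as independent. Arrays within a number pair were alike (limma consensus correlation 0.674). The interval may therefore be too narrow to bound what these arrays could have missed. Only 9.74% of tested probes had a change smaller in size than that of CCB3.

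Leaving out WT replicate 4 turned the CCB3 change to -0.056, and leaving out petc replicate 2 turned it to -0.018, so it has no settled direction. As with PSB27, CCB3 was lower in replicates 3 and 4 than in replicates 1 and 2, by -0.38 in WT and -0.30 in petc (log2). Within same-numbered samples petc was higher in 3 of 4, by 0.0038, 0.027 and 0.24 for numbers 1, 2 and 4, and differed by -0.051 for number 3. The block by number gave limma adjusted p = 0.588, and its interval for the log2 change was -0.14 to 0.24.

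NdhS, the NDH subunit, had intensities of 3.50, 3.26, 3.57 and 3.46 in WT replicates 1 to 4. In petc it had 5.46, 5.35, 5.57 and 5.87. The lowest petc value stood well above the highest WT value. Mean intensity rose from 3.45 ± 0.131 to 5.56 ± 0.224 (SD, n = 4), a ratio of 1.61. The coefficient of variation was 3.81% in WT and 4.03% in petc. After quantile normalisation the log2 fold change was 0.41 ± 0.079 (SE), with a 95% interval of 0.23 to 0.59 and limma adjusted p = 0.00642.

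Between same-numbered samples NdhS rose by 0.34, 0.38, 0.41 and 0.49 on the log2 scale for numbers 1 to 4. The shared direction of these follows from groups that do not overlap. By pair the rise was 0.36 (numbers 1 and 2) and 0.45 (numbers 3 and 4). NdhS was among the probes with the least spread, as 7 of 2947 tested probes had a smaller residual SD than its 0.041. Its size was not unusual: 16.9% of all tested probes, and 89 of the 595 tested single-gene probes, had a higher log2 fold change. The call was lost when the samples of a group and pair were taken as correlated readings (limma adjusted p = 0.0754) or averaged before the test (0.303, or 0.0686 with the pair as a block). It also fell just short in numbers 1 and 2 alone (0.0504), and adjusted p lay between 0.000141 and 0.303 across the alternatives.

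The scaling set how large the NdhS change was. It was 0.69 on the log2 scale with the intensities as deposited and 0.65 after median centring, against 0.41 after quantile normalisation. Probes of like brightness moved up as well when no scaling was used. The 54 other tested probes within 0.5 of the mean log2 intensity of NdhS had a median change of 0.29 as deposited, and 66.7% of them changed by less than NdhS. For LPA19 the change as deposited was 0.40, where 664 probes of like brightness had a median of 0.068. Over all tested probes the median change was 0.046 as deposited and -0.018 after quantile normalisation. PSB27 differed little between these scalings, with -0.37 under both.

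**Figure D3:**
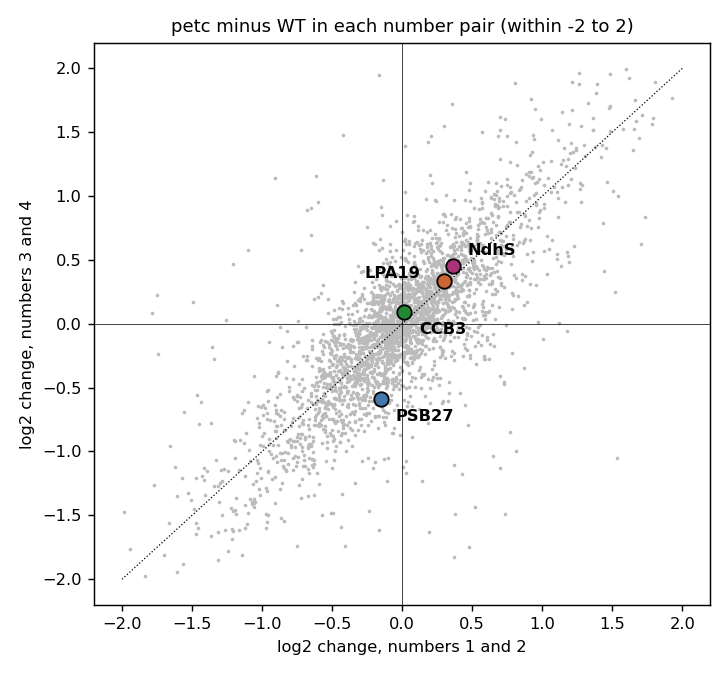
Log2 change of petc minus WT in replicates 1 and 2 (horizontal) and in replicates 3 and 4 (vertical), for 2884 tested probes (grey points) within -2 to 2 on both axes. Larger circles mark the 4 genes and the dotted line marks equal change. NdhS, LPA19 and CCB3 lie near the line, while PSB27 lies below it at -0.15 and -0.59.

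Across the 8 samples the normalised log2 values of PSB27 and CCB3 went together (Pearson r = 0.72), as did those of LPA19 and NdhS (r = 0.79). PSB27 went against NdhS (r = -0.49) and against LPA19 (r = -0.47). These values describe 8 arrays that share genotype and number pair. The first couple of genes shared the drop in replicates 3 and 4, and the second was higher in every petc sample.

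The single-gene probes most like each gene were found by the same Pearson r over the 8 samples among 586 probes with a value in all of them. For NdhS they were AT4G39690 (r = 0.998), AT2G22890 (r = 0.988) and AT3G26630 (r = 0.977). Their log2 fold changes were 2.28, 1.31 and 1.57, against 0.41 for NdhS. The probes most like LPA19 were AT1G13990 (r = 0.888), GH9B12 (AT2G44570, r = 0.837) and AT4G19900 (r = 0.836). Their log2 fold changes were 0.46, 0.34 and 0.63. Since NdhS and LPA19 separate petc from WT in the same 8 samples, a high r with either selects probes that differ between the groups, and these changes are given as a description.

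For PSB27 the most like were AT2G35490 (r = 0.977), AT2G14660 (r = 0.968) and AT2G46910 (r = 0.964). Their changes between petc and WT were -0.10, -0.19 and -0.25. Like PSB27, each was lower in replicates 3 and 4 than in replicates 1 and 2, by -0.25 to -0.38 in WT and by -0.50 to -0.71 in petc. A high r with PSB27 over the same samples selects probes that share its drop, so this too is a description. CCB3 was most like AT4G39570 (r = 0.950), AT1G68660 (r = 0.946) and AT5G02710 (r = 0.945), with changes of -0.0082, 0.15 and 0.014 between petc and WT.

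Few other genes of these pathways could be read. Of 88 further genes listed for photosystem assembly, cytochrome b6f assembly, the NDH complex and cyclic transport, and thylakoid membrane insertion, 5 had a single-gene probe and 3 could be tested. In limma 0 of the 3 passed, 0 had an unadjusted p below 0.05, and with the replicate block 0 passed. Over all tested probes 27.9% passed, and 46.6% with the block, so a count from 3 genes shows no contrast with other probes. Their median log2 fold change was -0.10, beside -0.018 over all tested probes. RBD1 (AT1G54500), a rubredoxin needed for photosystem II, had -0.070 ± 0.10 (SE, limma adjusted p = 0.677). PYG7 (AT1G22700), a photosystem I assembly factor, had -0.21 ± 0.13 (0.279). It was lower in petc in 4 of 4 same-numbered comparisons, which are not independent (limma adjusted p = 0.0743 with the block). CRR21 (AT5G55740), an RNA editing factor for a plastid NDH transcript, had -0.10 ± 0.12 (0.601).

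The remaining probes were mostly listed at 0. NdhN (AT5G58260), another nuclear subunit of the NDH complex, was above 0 in 2 of 4 WT samples, at 0.0702 and 0.00149, and in 2 of 4 petc samples, at 0.0410 and 0.0134. It could not be tested, so whether it moved with NdhS cannot be read here. CCS1 (AT1G49380), which acts in heme attachment to c-type cytochromes, was listed at 0 in all 8 samples.

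**Figure D4:**
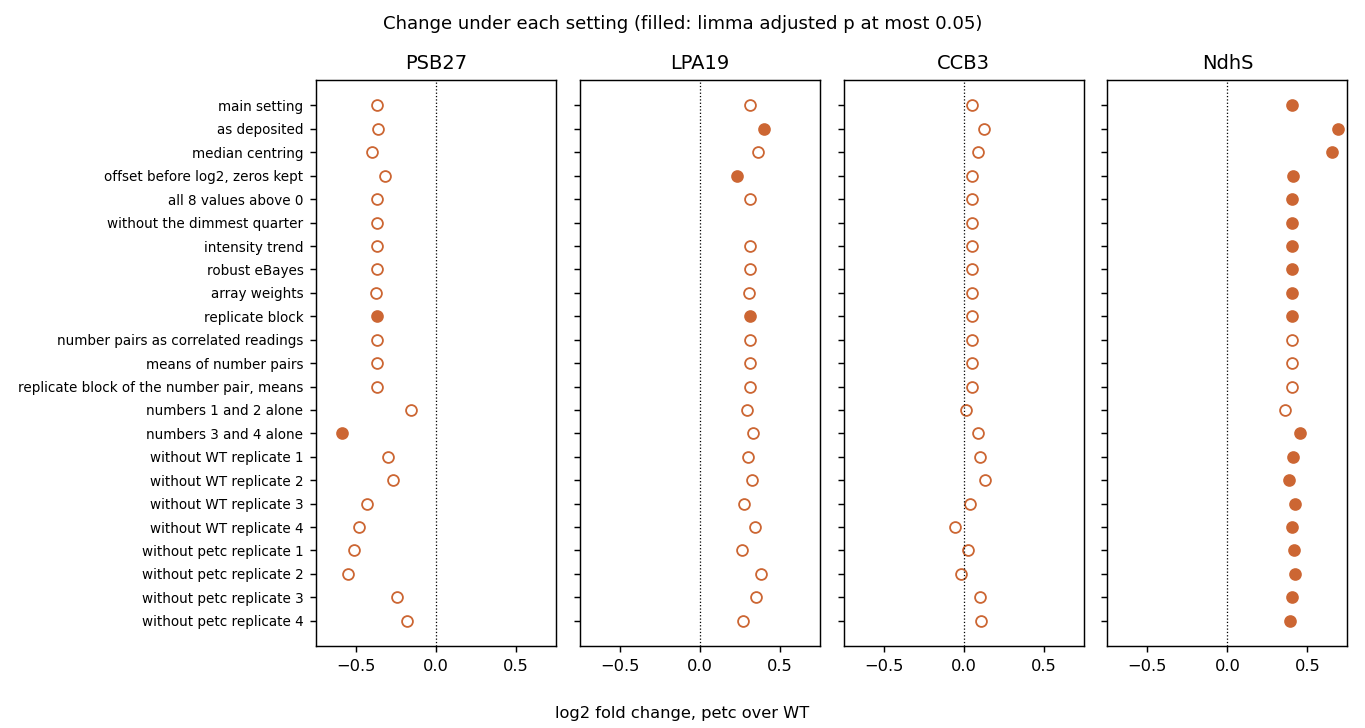
Log2 fold change of petc over WT (horizontal) for each gene under the main setting and each alternative (rows), filled where limma adjusted p was at most 0.05. NdhS stays between 0.36 and 0.69 and LPA19 between 0.23 and 0.40, PSB27 runs from -0.59 to -0.15, and CCB3 crosses 0 without WT replicate 4 or petc replicate 2.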

How the data were processed

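Total RNA of 4 WT and 4 petc samples was measured on expression arrays. The authors deposited linear intensities, and no source used here names the scanner, the background correction or the scaling. Column totals were 3287 to 3440, and 430 to 461 probes per sample were listed at 0. The number of arrays limits the precision. The annotation pairs 692 probes with 1 gene, 870 with several and 1877 with none. Entrez identifiers were matched to the RefSeq gene table of TAIR10.1, where 690 of the 692 were found. No probe sequences or coordinates were used.

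Values of 0 were set to missing, and the deposited intensities were taken to log2 and quantile normalised. Tests needed a minimum of 3 values per group and used limma 3.58.1 in R 4.3.3, without a block, and p-values were adjusted over all 2947 tested probes. The code was tested on simulated data in which every array was drawn independently. These had no likeness within number pairs, so they cannot show how often calls in the real arrays are false. Figures were drawn with matplotlib 3.10.9. Same-numbered samples of WT and petc departed alike from their group means (Pearson r of 0.586 to 0.649 across probes in all 4 pairs), so the fit with the replicate number as a block is given where it changes a call. This pairing comes from the data, not from a label. The split of the arrays by number pair could give such r by itself, and samples with different numbers were not compared. The block by number takes arrays that are much alike as separate pairs, so its p-values may be too small.

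The 4 genes, the pathway lists and the alternatives were chosen with earlier results of these data known. Genes named are the 4, the 3 single-gene probes most like each, and the tested pathway genes. NdhN and CCS1, which could not be tested, are given as deposited values and were named after their values were seen. The count of probes of like brightness and the choice of a window for it were also added after seeing the data.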

Additional observations from a re-analysis of the deposited data

How the results depend on the processing

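The count of 823 probes past the threshold was 1374 with the replicate block, 345 with each pair of numbers as correlated readings and 0 with the means of each pair (585 at an unadjusted p below 0.05). That count of probes was 833 with the intensities as deposited, 821 with the offset and 796 with the means and a block by pair. Arrays of replicates 3 and 4 by themselves gave 1033, and those of replicates 1 and 2 gave 685. Of the 4 genes, 1 passed in the main setting, and whether they gained more than other probes elsewhere was not tested. The count was 2 with the intensities as deposited and with the offset (NdhS and LPA19). It was 3 with the replicate block and 2 in numbers 3 and 4 alone (NdhS and PSB27). It was 0 with correlated readings, with the means of pairs with or without a block by pair, and for numbers 1 and 2 alone. Of all tested probes, 27.9% passed in the main setting and 46.6% with the replicate block. Shares for the other settings were not computed, so their counts of genes have no background beside them. The offset keeps values of 0, so its 821 may be over another set of probes. PSB27 was -0.37 with the replicate block and -0.59 in numbers 3 and 4 alone, both past the threshold. LPA19 passed at 0.40 as deposited, 0.23 with the offset and 0.31 with the replicate block. Its exact permutation test (0.31, p = 0.0286) restates that no values overlap, which fixes that p, and takes the 8 arrays as exchangeable. NdhS lost its call at 0.41 with correlated readings and with both fits of the means, and at 0.36 in numbers 1 and 2 alone. The block changed no other call of the 4 genes. Leaving out 1 sample at a time, NdhS kept its call at 0.38 to 0.42, PSB27 was -0.55 to -0.18, LPA19 0.26 to 0.38 and CCB3 -0.056 to 0.13, the last with no settled sign, and the ratio of PSB27 to LPA19 changed by -0.93 to -0.45. LPA19 belongs to the dimmest 25% of probes, so it has no value without them. The causes of these shifts were not tested.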
